A study of Mus musculus with 12 samples.

Results

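Support cells of the mouse embryonic gonad were compared between XY and XX embryos at embryonic day 12.5 (E12.5), the stage at which the gonad becomes visibly a testis or an ovary. The comparison rests on 6 of the 12 arrays of the study, 3 pools of XX cells and 3 pools of XY cells, and takes in all 44238 of 45037 probe sets that held a value on every array. Every embryo came from a transgenic FVB line that carries Tg(Tyr)3412ARpw and Tg(Sry-EGFP)92EI, so XX and XY cells share both transgenes, and the labels name no treatment. Somatic support cells had been sorted by flow cytometry, the XX pools from E12.5 ovaries and the XY pools from E12.5 testes. The remaining 6 arrays hold XX and XY pools from E11.5 and entered the estimate of the spread. In this line the Sry-EGFP transgene reports activity of Sry regulatory sequence, and its name does not say which cells were gated. Each pool was amplified in 2 rounds and read on 1 Affymetrix mouse array. Nothing in the labels ties a pool to a litter, so the p-values reflect only how far these pools spread, and that spread may be partly technical.

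Supporting cells surround and nourish the germ cells. In an XY gonad the Y-linked gene Sry switches on Sox9 in the precursors, which then become Sertoli cells, enclose the germ cells in cords and secrete the signals that instruct the rest of the testis. Without that switch the same precursors follow WNT4, R-spondin 1 and FOXL2 and become pregranulosa cells. Each route is known to repress the other, so the comparison describes how far the transcripts of the 2 routes had parted at this stage.

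The start regions of 4 genes that carry the comparison are shown first, because the RNA signal of each parted clearly between the sexes: Dhh and Ptgds, high in XY, and Foxl2 and Slitrk1, high in XX. Each is the 250 bases before the RefSeq start site, 5′ to 3′ on the strand of the gene, on the GRCm38.p6 build, with CpG dinucleotides in capitals.
Dhh, chr15:98898541-98898790, minus strand: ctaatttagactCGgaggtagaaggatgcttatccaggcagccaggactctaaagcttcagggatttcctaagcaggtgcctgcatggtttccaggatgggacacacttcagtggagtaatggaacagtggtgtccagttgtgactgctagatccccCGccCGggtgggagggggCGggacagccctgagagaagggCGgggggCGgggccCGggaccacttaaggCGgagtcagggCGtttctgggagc
Ptgds, chr2:25469750-25469999, minus strand: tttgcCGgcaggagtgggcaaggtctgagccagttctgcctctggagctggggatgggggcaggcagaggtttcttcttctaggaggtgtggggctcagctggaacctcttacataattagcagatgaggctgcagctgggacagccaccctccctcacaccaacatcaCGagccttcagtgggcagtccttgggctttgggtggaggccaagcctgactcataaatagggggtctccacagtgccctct
Foxl2, chr9:98955357-98955606, plus strand: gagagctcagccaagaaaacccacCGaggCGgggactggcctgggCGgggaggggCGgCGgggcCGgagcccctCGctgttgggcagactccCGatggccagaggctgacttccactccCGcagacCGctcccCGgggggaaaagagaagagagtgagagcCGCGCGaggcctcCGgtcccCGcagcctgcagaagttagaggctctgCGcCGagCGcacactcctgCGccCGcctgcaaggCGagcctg
Slitrk1, chr14:108914240-108914489, minus strand: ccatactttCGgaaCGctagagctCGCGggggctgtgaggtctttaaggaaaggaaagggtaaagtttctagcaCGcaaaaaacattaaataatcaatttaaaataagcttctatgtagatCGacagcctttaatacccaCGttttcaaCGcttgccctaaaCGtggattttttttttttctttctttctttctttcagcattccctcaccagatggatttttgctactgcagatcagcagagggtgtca
The 4 stretches hold 9, 2, 22 and 9 CpG dinucleotides in that order, against a median of 6 in the 32851 windows of the RefSeq table. Windows of 300 bases, these 250 and the 50 after the start site, were searched on both strands. The search was for core letters of 3 factor families of this lineage, ACAATGG for SOX, GTAAACA for forkhead and CTTTGAT for TCF/LEF factors. None of the letters occurs in the 4 windows. Over all windows they occur in 3.66%, 3.65% and 3.73%. Among genes with a window, the 789 called higher in XY held them in 2.79%, 4.31% and 3.80%, the 798 called lower in 1.75%, 3.13% and 3.76%, and the 14301 on the array in 3.25%, 3.41% and 3.46%. These shares are counts of letters, not of bound sites.

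**Figure D1:**
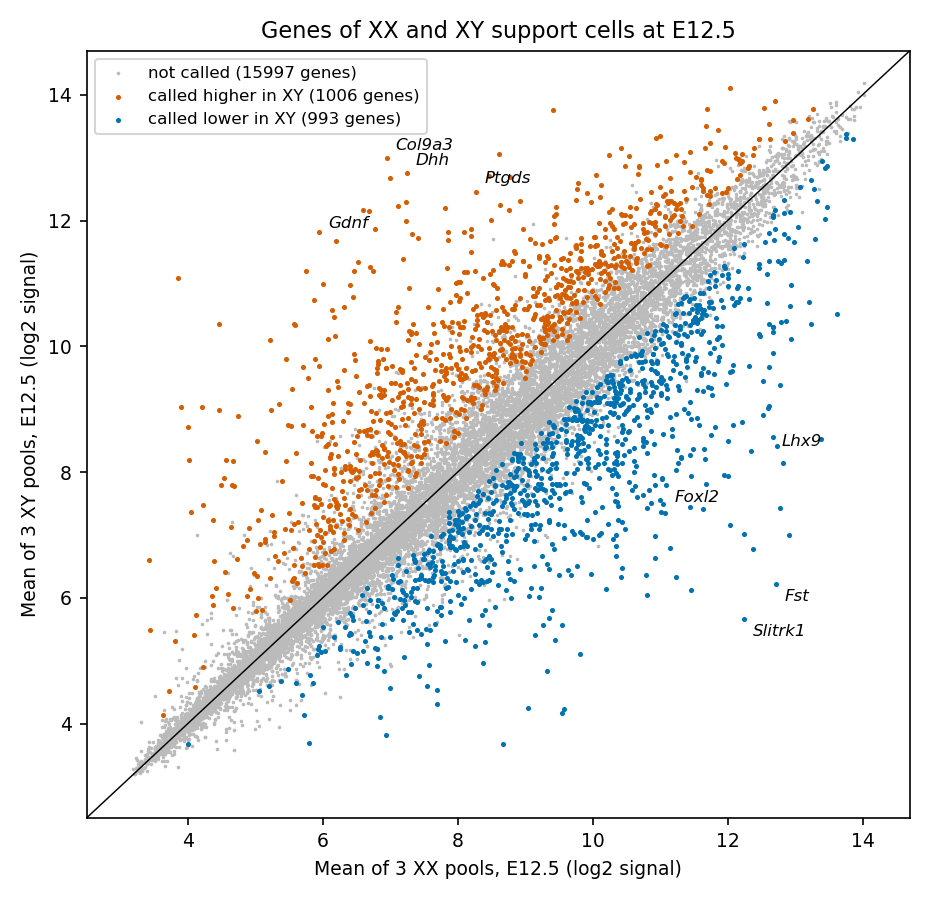
Mean log2 signal of each of 17996 genes at its brightest probe set, XX pools on the horizontal axis and XY pools on the vertical axis, each mean over 3 pools at E12.5. Orange points mark the 1006 genes called higher in XY, blue points the 993 called lower and grey points the rest. The 8 labelled genes are among those furthest from the diagonal.

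Of the 44238 probe sets, 3416 (7.72%) passed the threshold of a Benjamini-Hochberg adjusted p under 0.05 in limma, 1732 higher in XY (3.92%) and 1684 lower (3.81%). With each gene read at its brightest probe set, 1999 of 17996 genes (11.1%) were called, 1006 higher in XY (5.59%) and 993 lower (5.52%). Leaving out pool 3 of the E12.5 arrays reduced the 3416 to 2054 (XX) or 2089 (XY). The XX and XY pools did not overlap at 6220 genes (34.6%), so separate groups alone say little here. Genes called higher in XY had a median log2 difference of 1.45, and 289 of them were at least 4-fold and 73 at least 10-fold higher. Genes called lower had a median of 1.32 in the other direction, with 250 at least 4-fold and 62 at least 10-fold lower. Without each of the 12 arrays in turn, 518 of the genes higher and 523 of those lower kept their call every time.

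**Figure D2:**
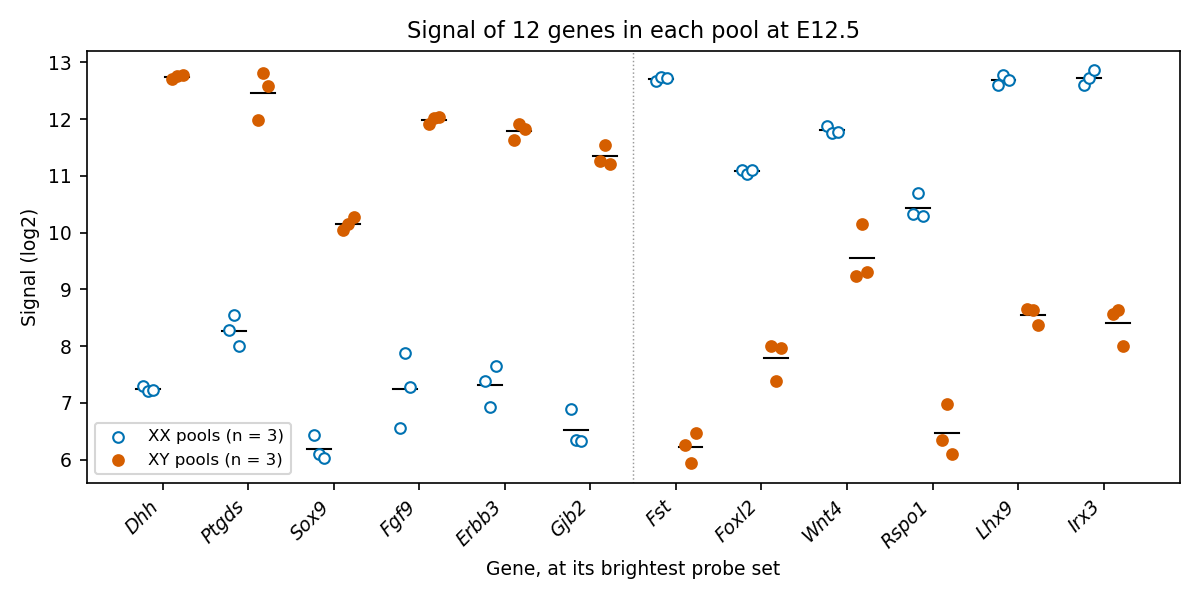
Log2 signal of 12 genes in each pool at E12.5, open circles for the 3 XX pools and filled circles for the 3 XY pools, with a bar at each group mean. For all 12 genes the pools of the sexes do not overlap, 6 of them higher in XY and 6 higher in XX. The genes were picked with earlier results of these data known, and the pools do not overlap at 34.6% of all genes.

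The Sertoli markers Dhh and Ptgds were higher in the XY pools, and the pregranulosa markers Fst and Foxl2 in the XX pools. Dhh, which encodes the desert hedgehog ligand of Sertoli cells, read 7.30, 7.21 and 7.23 in XX pools 1 to 3 and 12.70, 12.76 and 12.78 in the XY pools, 45.2-fold (95% interval 22.6 to 90.4) higher in XY (limma, adjusted p = 7.6e-05). Ptgds, which encodes the prostaglandin D2 synthase that amplifies Sox9, read 8.28, 8.54 and 8.0 against 11.98, 12.82 and 12.59, 18.2-fold (95% interval 11.2 to 29.7) higher (adjusted p = 4.6e-05). The pools of each sex lay close together at both genes and far from those of the other sex. Fst encodes follistatin, the activin antagonist of the early ovary, and read 12.68, 12.74 and 12.72 in XX and 6.25, 5.94 and 6.47 in XY, 90.3-fold (95% interval 42.7 to 191) lower in XY (adjusted p = 4.5e-05). Foxl2, the forkhead factor that maintains granulosa identity, read 11.11, 11.03 and 11.11 in XX and 8.01, 7.39 and 7.96 in XY, 9.83-fold (95% interval 6.35 to 15.2) lower (adjusted p = 9.8e-05). At both genes every XY pool lay below every XX pool by over 2 log2 units. Dhh and Ptgds were called at 2 of 2 probe sets and 2 of 2 probe sets, Fst at 2 of 2 probe sets and Foxl2 at 1 of 2 probe sets. Foxl2os, which is transcribed antisense next to Foxl2, read 9.75, 10.72 and 10.55 in XX and 6.43, 7.33 and 6.71 in XY, and whether the signals of the 2 genes can be told apart was not tested.

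Genes of the Sertoli programme were higher in XY. Of 27 measured genes of Sertoli differentiation 23 were called higher in XY and 0 lower, 85.2% against the 11.1% of all genes. Their median difference was 3.16 against 0.00 over all genes, and 21 of the 23 kept the call without any 1 array. These genes were put on the list because they mark Sertoli cells and with earlier results of these arrays known, so their direction is not independent evidence. Sox9, the factor that commits the lineage, read 6.43, 6.09 and 6.03 in XX and 10.04, 10.16 and 10.28 in XY (log2 difference 3.98 ± 0.38, SE). Fgf9, the growth factor that sustains Sox9, read 6.56, 7.88 and 7.27 against 11.92, 12.02 and 12.03, and XX pool 1 was the lowest of the XX pools. Among the largest differences were Col9a3, a chain of collagen IX, with 6.90, 6.96 and 6.99 in XX and 12.86, 13.03 and 13.07 in XY, and Cbln4, a secreted cerebellin, with 6.06, 5.76 and 6.19 against 11.28, 10.62 and 11.07. At both the 3 pools of a sex agreed within less than 1 log2 unit while the sexes differed by 6.04 and 4.99. Amh, whose hormone removes the Müllerian duct, differed less, with 6.35, 6.75 and 6.53 in XX and 7.38, 8.87 and 7.80 in XY (2.78-fold (95% interval 1.74 to 4.43) higher, adjusted p = 0.015). That call ended on leaving out any 1 of XX E12.5 pools 1 and 3 (adjusted p up to 0.055).

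Pregranulosa genes were lower in XY. Of 25 measured 18 were lower in XY and 1 higher, 76.0% against the 11.1% of all genes. The median was -2.62, and all 18 lower calls held without any 1 array. The list was chosen in the same way as the Sertoli list. Wnt4, the signal of ovarian development, read 11.88, 11.76 and 11.77 in XX and 9.23, 10.15 and 9.30 in XY (4.74-fold lower, adjusted p = 0.0036). Rspo1, which potentiates it, read 10.32, 10.69 and 10.29 against 6.35, 6.98 and 6.09 (15.6-fold lower). In XY both genes still read above the background, which is the range of 3.33 to 5.17 that probe sets of 3 Y-linked genes gave in XX cells, at the 5 of 9 that separate the sexes. Where a lower mean lay at or below 5.17, folds are written as at least the one measured. The other 4 probe sets read 3.09 to 6.04 in XX cells, so a fold against a mean between 5.17 and 6.04 may be a lower bound as well. This touches 22 of the called genes with values here, among them Slitrk1, Etv5, Cstdc1 and Gdnf. The exception to the direction was Znrf3, a membrane ubiquitin ligase that removes WNT receptors, which was 3.84-fold higher in XY (adjusted p = 0.015). That call ended on leaving out any 1 of XX E12.5 pool 3 and XY E12.5 pool 1 (adjusted p up to 0.063).

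Regulators of the early gonad were split. Of 23 of them 4 were called higher in XY and 5 lower, 39.1% against the 11.1% of all genes, with a median of 0.14. Lhx9, a LIM homeobox gene needed for the gonad to form, read 12.60, 12.77 and 12.69 in XX and 8.65, 8.64 and 8.37 in XY, 17.6-fold (95% interval 13.5 to 22.7) lower. Emx2, another homeobox gene of the genital ridge, read 11.73, 11.89 and 11.63 against 8.75, 8.26 and 8.76, 8.94-fold (95% interval 6.12 to 13.1) lower. Nr0b1 (DAX1), a nuclear receptor that in excess opposes Sry, was 2.91-fold (95% interval 1.98 to 4.28) lower. By contrast Gata4 (log2 difference 0.01 ± 0.33), Wt1 (-0.05 ± 0.21) and Nr5a1 (0.23 ± 0.30), the factors that both fates use, were not called. A call that was not made does not show that the levels were equal. Sry read 6.92, 7.12 and 7.39 in XX and 6.82, 7.14 and 7.09 in XY and was not called (-0.13 ± 0.16). XX cells lack a Y chromosome and still gave this signal, and whether the probe set reads the transgene was not tested. Cbx2 (-0.32 ± 0.17), Six4 (1.09 ± 0.34), Gadd45g (-0.85 ± 0.30), Igf1r (0.78 ± 0.23) and Insr (0.39 ± 0.27), which act upstream of Sry, were not called either.

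**Figure D3:**
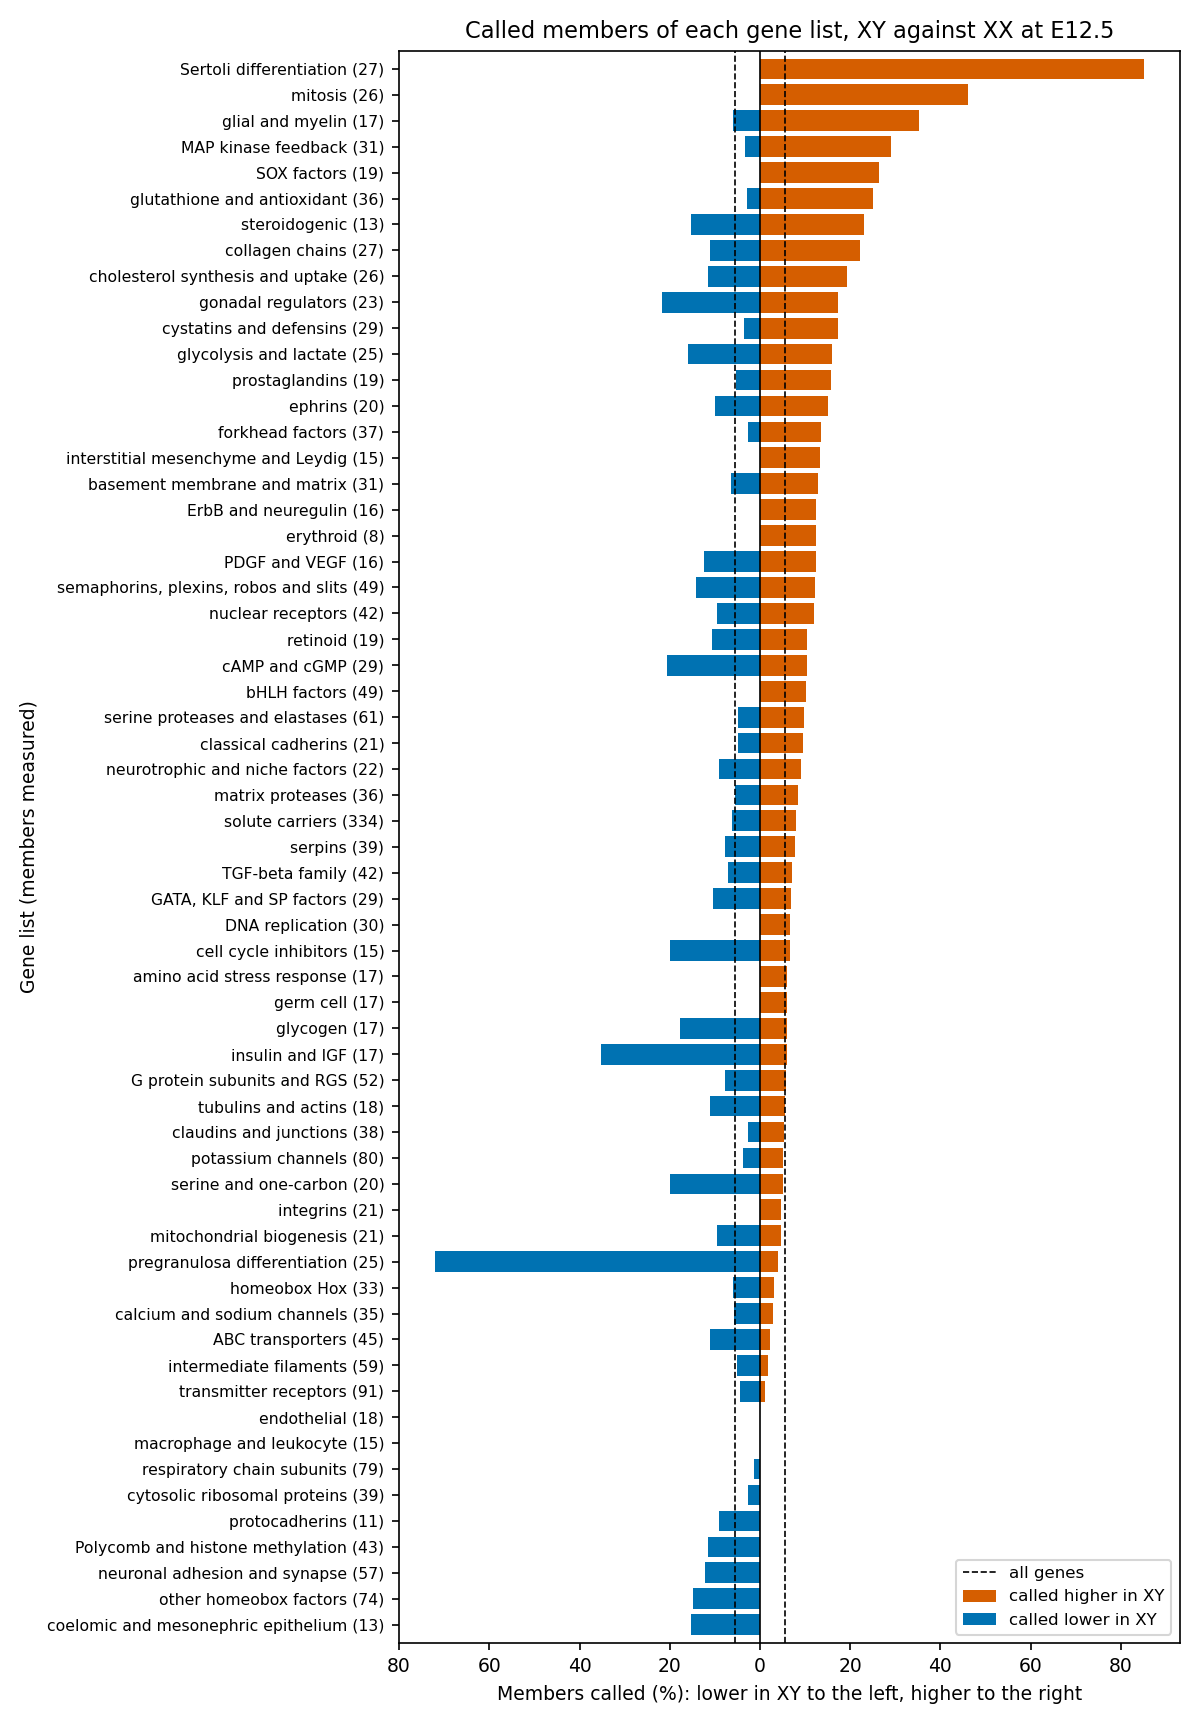
Percent of the measured members of each gene list called higher in XY (orange, to the right) and lower in XY (blue, to the left) at E12.5, with the number of members measured in parentheses. Dashed lines mark 5.59% and 5.52%, the shares among all 17996 genes. Sertoli genes reach furthest to the right and pregranulosa genes furthest to the left.

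Among transcription factor families, the called SOX and homeobox genes lay in opposite directions. Of 19 SOX genes 5 were higher in XY and 0 lower, 26.3% against the 11.1% of all genes. Of the 5, 4 kept the call without any 1 array. Sox8, which backs up Sox9, was at least 8.95-fold higher, with 5.37, 4.80 and 5.29 in XX and 8.36, 8.17 and 8.42 in XY. Sox10, the third member of that subfamily and better known from glia, read 6.99, 6.91 and 7.08 against 8.37, 8.91 and 8.56 (3.07-fold higher, adjusted p = 0.00016), and Sox13 was 2.36-fold higher. The call of Sox6 (5.2-fold higher) ended on leaving out any 1 of XX E12.5 pools 1, 2 and 3 and XY E12.5 pools 1 and 3 (adjusted p up to 0.078). None of 74 homeobox genes outside the Hox clusters was called higher, whereas 11 were lower (14.9%). Of these, 9 held without any 1 array. Irx3, an Iroquois factor of granulosa cells, read 12.60, 12.73 and 12.86 in XX and 8.57, 8.64 and 8.01 in XY (log2 difference -4.32 ± 0.48), and Irx5, its neighbour on chromosome 8, 8.99, 9.36 and 8.94 against 6.57, 5.78 and 6.11 (7.66-fold lower). Msx1, which is induced by BMP signals and supports meiotic entry in the ovary, was 10.2-fold lower, Pbx3 5.35-fold and Prrx2 6.76-fold. Over the whole homeobox list the median was -0.06.

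Hes5, a basic helix-loop-helix repressor that answers to Notch, read 6.36, 5.97 and 6.31 in XX and 9.45, 9.02 and 9.85 in XY (9.36-fold higher, adjusted p = 2.3e-05). It belongs to a family of 49 measured genes with 5 higher in XY and 0 lower, 10.2% against the 11.1% of all genes. The higher count became 3 on leaving out XX E12.5 pool 3 or XY E12.5 pool 1. Hey2, a related Notch target, was at least 4.57-fold higher, and Tcf24 6.6-fold higher. Foxc1, a forkhead factor, read 6.13, 6.56 and 6.79 against 9.27, 9.30 and 9.99 (8.16-fold higher), the reverse of Foxl2. Klf7, a zinc finger factor of neurons, was 6.5-fold lower, and Sp5, a zinc finger gene induced by beta-catenin, 2.8-fold lower. Nr4a3, an orphan nuclear receptor that is induced rapidly by signals at the membrane, was 11.4-fold higher, with 7.86, 6.49 and 6.98 in XX and 11.68, 9.09 and 11.10 in XY. Within nuclear receptors 5 of 42 were higher and 4 lower (21.4%), and 3 of the 9 calls held without any 1 array. Esr1, the oestrogen receptor alpha gene, read 11.34, 10.68 and 11.12 in XX and 8.69, 5.33 and 8.45 in XY (11.8-fold lower). That call ended on leaving out any 1 of XX E12.5 pools 1 and 3 (adjusted p up to 0.063).

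The called share of the TGF-beta family, 14.3%, was near the 11.1% of all genes. In the TGF-beta family 3 of 42 members were called up in XY (1 on leaving out XX E12.5 pool 1 or 3) and 3 lower, and 0 of 12 receptor genes were called in limma (4 had an unadjusted p under 0.05). Bmp2, a ligand made by pregranulosa cells, read 12.51, 12.71 and 12.33 in XX and 9.55, 9.25 and 9.52 in XY (8.43-fold lower, adjusted p = 0.00026), and Bmp5 9.36, 10.23 and 10.17 against 7.49, 6.55 and 6.86 (7.76-fold lower). With Fst these made up the 3 lower genes, a count that was 5 without XY E12.5 pool 2. Smad7, an intracellular inhibitor of the pathway, was 1.69-fold higher. Inhbb, which encodes the beta-B subunit of activin and inhibin, was 1.83-fold higher, and its call ended on leaving out any 1 of XX E12.5 pools 1, 2 and 3 and XY E12.5 pools 1, 2 and 3 (adjusted p up to 0.1).

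Most called genes of the insulin and IGF system were lower in XY. Of 17 members 6 were lower in XY and 1 higher, 41.2% against the 11.1% of all genes, with a median of -0.94. All 7 kept the call without any 1 array. Without XX E11.5 pool 1 and without XX E11.5 pool 2 the higher genes numbered 2. Igf1, which encodes a growth factor, read 11.31, 10.62 and 11.17 in XX and 8.23, 9.17 and 6.30 in XY (8.76-fold (95% interval 3.65 to 21) lower, adjusted p = 0.0079). Igf2, a growth factor expressed from the paternal allele, read 12.66, 13.03 and 13.08 against 10.41, 11.53 and 9.98 (4.86-fold lower, adjusted p = 0.0055). Irs4, the X-linked adaptor that carries the receptor signal inward, read 9.32, 9.26 and 9.39 against 5.30, 4.53 and 4.68 (at least 22.5-fold lower). The XX pools of Irs4 lay close together and far above the XY pools, and the gene was called at 1 of 2 probe sets. Binding proteins, which hold the ligands outside the cell, went both ways: Igfbp2 (5.96-fold), Igfbp5 (5.3-fold) and Igfbp4 (3.53-fold) were lower and Igfbp7 (4.53-fold) was higher. The 3 receptor genes were not called by limma, and 1 of them had an unadjusted p under 0.05.

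Among genes that report or restrain MAP kinase activity, 31 were measured, of which 9 were called higher and 1 lower, 32.3% against the 11.1% of all genes, with a median of 0.71. Leaving out XX pool 2 or XY pool 1 of E12.5 left 5 of the higher calls. Etv5, an ETS factor induced by FGF signals, read 5.45, 6.40 and 5.41 in XX and 11.29, 11.17 and 11.13 in XY (43.4-fold (95% interval 17.6 to 107) higher, adjusted p = 0.00038). Spry4, a cytoplasmic brake on the same receptors, read 8.26, 7.40 and 6.58 against 11.31, 11.72 and 12.11 (19.7-fold higher). The phosphatase genes Dusp4 and Dusp6, which switch off ERK, were 10.6-fold and 6.21-fold higher, and all 4 of these calls held without any 1 array. Sulf1, an extracellular sulfatase that trims heparan sulfate and lowers FGF signalling, was the exception with 12.56, 12.70 and 12.56 in XX and 9.19, 9.54 and 8.42 in XY (11.8-fold lower).

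Other receptor families contributed a few large differences each. Erbb3, the neuregulin receptor subunit that signals through its partners, read 7.38, 6.93 and 7.65 in XX and 11.63, 11.92 and 11.83 in XY (22.2-fold (95% interval 10.3 to 47.7) higher, adjusted p = 0.00045), and the other 3 ErbB receptor genes were not called. Gdnf, the factor that keeps spermatogonial stem cells dividing, read 5.46, 5.94 and 6.45 against 11.72, 11.86 and 11.83 (57.9-fold (95% interval 24.1 to 139) higher). Its XX values spread over about 1 log2 unit and its XY values over far less. Pdgfrl, a secreted protein related to PDGF receptors, was 6.07-fold higher. Nrp1, a coreceptor for semaphorins and VEGF, was 8.66-fold lower, with 12.13, 10.44 and 11.23 in XX and 7.71, 7.65 and 9.10 in XY. Efna1, a membrane-bound ephrin ligand, read 8.48, 10.06 and 9.97 against 6.42, 6.61 and 6.05 (8.82-fold lower), and the ephrin receptor genes Ephb1 and Epha2 were 1.79-fold and 1.71-fold higher.

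The lists of prostaglandin, retinoid and steroid genes differed at single genes. Of 19 prostaglandin genes 3 were higher in XY and 1 lower (2 without XX E12.5 pool 1), 21.1% against the 11.1% of all genes. All 4 held without any 1 array. By limma 0 of 9 receptor and carrier genes were called (1 had an unadjusted p under 0.05). Beside Ptgds, Hpgd, whose enzyme inactivates prostaglandins, was 8.17-fold higher with 5.40, 5.99 and 5.73 in XX and 8.89, 8.72 and 8.60 in XY. Ptgis, which encodes prostacyclin synthase, read 11.09, 11.04 and 10.97 against 8.14, 7.30 and 8.23 and was 8.82-fold lower. Cyp26b1, whose enzyme breaks down retinoic acid and so shields germ cells in the testis from meiosis, read 9.03, 8.18 and 7.92 against 10.49, 10.51 and 10.48 (4.34-fold higher, adjusted p = 0.0021). Aldh1a1, which makes retinoic acid, was higher as well (4.2-fold), and Dhrs3, which turns retinaldehyde back to retinol, was 5.88-fold lower. Of 13 steroidogenic genes 3 were called higher and 2 lower (1 without XX E12.5 pool 1), 38.5% in all, with a median of 0.08. Hsd17b1 was 4.99-fold and Hsd17b3 at least 2.76-fold higher, both coding for enzymes that reduce a 17-keto group of sex steroids. Hsd17b1 read 5.41, 6.17 and 5.93 in XX and 7.74, 7.89 and 8.83 in XY, without overlap, as at 34.6% of all genes. Fshr, the receptor gene for follicle-stimulating hormone, was 1.75-fold higher, and that call ended on leaving out any 1 of XX E11.5 pool 3, XY E11.5 pools 1, 2 and 3, XX E12.5 pools 2 and 3 and XY E12.5 pools 1, 2 and 3 (adjusted p up to 0.17). The lower genes were Esr1, given above, and Akr1c14. Esr1 and Fshr, counted on that list, encode receptors and no enzymes. Akr1c14 encodes a hydroxysteroid dehydrogenase and was at least 6.7-fold lower, with 5.99, 7.0 and 7.55 in XX and 4.73, 3.78 and 3.81 in XY. Star and Cyp17a1, which define steroid-producing cells, had means of 8.89 and 7.5 in XX and 9.71 and 7.19 in XY, and neither was called.

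Glutathione enzymes were mostly higher in XY where they were called. Among 36 measured, 9 were higher in XY and 1 lower, 27.8% against the 11.1% of all genes. Of the 10, 6 kept the call without any 1 array. The transferase genes Gstm6 (16.3-fold), Gstm7 (9.21-fold), Gstm2 (6.79-fold) and Gstm1 (6.61-fold) were higher and lie next to each other on chromosome 3. Gstm1 read 9.98, 10.73 and 10.56 in XX and 12.62, 13.62 and 13.20 in XY. These genes are near-identical copies, and probes of 1 may read RNA of another. Gpx3, a secreted glutathione peroxidase from another chromosome, read 7.94, 7.81 and 8.38 against 9.72, 10.62 and 10.57 (4.8-fold higher, adjusted p = 0.0014). Gclm, the regulatory subunit of glutathione synthesis, was 1.6-fold lower, and that call ended on leaving out any 1 of XY E11.5 pool 2, XX E12.5 pools 1, 2 and 3 and XY E12.5 pools 1, 2 and 3 (adjusted p up to 0.1).

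Ppargc1a, a coactivator that drives mitochondrial genes, read 4.64, 4.48 and 4.25 in XX and 10.56, 9.86 and 10.66 in XY (at least 59.9-fold higher, adjusted p = 0.00049, called at 3 of 5 probe sets). The XX pools lay within the background range. Respiratory chain subunits had a median of -0.21 with 0 of 79 higher and 1 lower, 1.27% against the 11.1% of all genes. The lower count was at most 3 without any 1 array. The median of cytosolic ribosomal proteins was -0.30 with 2 of 39 above 0, and 15 had an unadjusted p under 0.05 in limma. Of the 39, 1 was called lower (2.56%), a call that most single arrays could end. The lower respiratory subunit was Cox6b2, the testis form of a cytochrome oxidase subunit, 4.27-fold lower in XY. Cholesterol synthesis had a median of 0.43 with 18 of 26 genes above 0. Of these 26, 5 were called higher and 3 lower, 30.8% against the 11.1% of all genes. The sterol enzyme genes Nsdhl (2.64-fold), Ebp (2.01-fold) and Fdps (1.88-fold) were among the higher ones. Npc1, which exports cholesterol from lysosomes, was 2.42-fold lower. Either XX pool 1 or XY pool 3 of E12.5, left out, reduced the higher count to 3. In glycogen metabolism the phosphorylase genes Pygl and Pygb were 2.36-fold and 2.25-fold lower. Slc1a4, a transporter of serine and alanine, read 12.33, 12.19 and 12.15 against 8.59, 8.42 and 9.36 (10.8-fold lower), and Mtr, the methionine synthase gene, was 2.86-fold lower. In limma 8 of 25 genes of glycolysis and lactate metabolism were called (32.0%). Of the 8, 0 kept the call when each array was left out in turn.

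Collagen genes were called in both directions. Of 27 chain genes 6 were higher in XY and 3 lower (33.3%), the median was 0.08, and all 9 held without any 1 array. The lower count was 5 without XX E11.5 pool 3. Col14a1, a chain that coats fibrils, read 4.96, 7.15 and 7.67 in XX and 12.04, 11.93 and 12.51 in XY (47.4-fold higher). It was called at 1 of 2 probe sets, and XX pool 1 was the lowest. Col9a2, which assembles with Col9a3, was 5.35-fold higher. Col8a2 (13.2-fold), Col27a1 (8.23-fold) and Col18a1 (5.09-fold), the last a basement membrane chain, were also higher. Col6a1 and Col6a2, neighbours on chromosome 10 whose products assemble together, were 3.03-fold and 5.12-fold lower, with 11.61, 11.53 and 11.99 in XX and 9.51, 9.64 and 8.91 in XY for Col6a2. The matrix genes Smoc2 (13.2-fold), Vcan (6.52-fold), which encodes the proteoglycan versican, and Sparc (4.98-fold), which encodes a collagen-binding protein, were higher. Egfl6, a secreted EGF-repeat protein, read 9.36, 10.91 and 10.88 against 7.28, 7.05 and 7.37 (8.85-fold lower), and Has2, the hyaluronan synthase gene, was 3.85-fold lower. Adamts16 and Mmp2, both secreted proteases, were 5.23-fold and 3.51-fold higher.

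Junction genes were called at 7.89%, cadherin genes at 14.3% and protocadherin genes at 9.09%, against the 11.1% of all genes. Gjb2 (connexin 26), a gap junction subunit, was the largest difference of 38 junction genes, with 6.89, 6.35 and 6.33 in XX and 11.27, 11.55 and 11.21 in XY (28.2-fold higher, adjusted p = 3.5e-06). Cldn23, a claudin, was at least 5.57-fold higher. Cdh4 (2.99-fold) was higher among 21 cadherin genes and Pcdh18 (3.76-fold) was lower among 11 protocadherin genes. Acta2, the smooth muscle actin gene, read 10.95, 10.98 and 11.10 in XX and 7.79, 6.95 and 7.37 in XY (12.5-fold lower, adjusted p = 0.00015). All 3 XY pools lay more than 3 log2 units below the lowest XX pool at this gene.

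Several genes better known from neurons were higher in XX. Of 57 genes of neuronal adhesion and synapses 7 were lower in XY and 0 higher. This is 12.3% called, near the 11.1% of all genes. All 7 calls held without any 1 array, while the median was -0.08. Slitrk1, a synaptic adhesion protein gene, had the largest difference of the named genes called lower, with 12.35, 12.14 and 12.26 in XX and 6.13, 4.66 and 6.2 in XY (96.2-fold (95% interval 44.5 to 208) lower, adjusted p = 4.7e-05). Dclk1, a microtubule-binding kinase of migrating neurons, read 12.91, 12.71 and 12.69 against 8.09, 6.79 and 7.37 (40.9-fold (95% interval 27.2 to 61.6) lower), called at 5 of 9 probe sets. In both cases the XX pools agreed within 0.3 log2 units and the XY pools spread more widely. Tph2, the neuronal enzyme that starts serotonin synthesis, read 9.75, 9.52 and 9.45 in XX and 4.62, 3.94 and 4.12 in XY (at least 40.7-fold lower). Slc6a4, the serotonin uptake transporter gene, lay on the other side with 6.82, 7.26 and 7.34 against 9.48, 9.83 and 9.60 (5.65-fold higher, adjusted p = 0.00024). Lrrn3 (10.4-fold), Cntn5 (at least 10.4-fold), Syt11 (4.37-fold) and Map2 (3.49-fold) were the other lower genes of the list.

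Transmitter receptor and channel genes included 2 subunits of 1 receptor. Of 91 transmitter receptor genes 4 were lower and 1 higher, 5.49% against the 11.1% of all genes. The lower count was 2 without XX E12.5 pool 3. The 2 that held without any 1 array were Gabra4 and Gabrb1, which encode the alpha-4 and beta-1 subunits of the GABA-A receptor. Gabra4 read 11.21, 10.96 and 11.28 in XX and 7.44, 5.53 and 7.41 in XY (20.5-fold (95% interval 10.2 to 41.3) lower), and Gabrb1 12.03, 11.07 and 11.78 against 7.09, 6.65 and 8.47 (18.6-fold (95% interval 7.76 to 44.8) lower). Gabra4 was called at 2 of 2 probe sets and Gabrb1 at 2 of 4. Their start sites lie 387 bases apart on chromosome 5, on opposite strands, in the RefSeq table. Of 80 potassium channel genes Kcnk2, a leak channel, was 10.5-fold higher and Kcnf1 and Kcnip1 4.69-fold and 5.63-fold lower. Cacna1d, an L-type calcium channel gene, read 9.72, 11.62 and 11.27 against 7.86, 7.58 and 7.08 (10.3-fold lower).

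Axon guidance genes went both ways, 6 of 49 higher in XY and 7 lower, 26.5% against the 11.1% of all genes. Robo1, the receptor for SLIT, read 8.37, 7.71 and 7.46 in XX and 11.92, 11.28 and 11.85 in XY (14.3-fold higher). Plxnb3 (6.3-fold), Sema3g (3.83-fold) and Sema4a (2.83-fold) were higher. Sema3a, a secreted repellent, read 11.06, 11.37 and 11.25 against 7.85, 7.73 and 8.52 (9.15-fold lower), and the genes of its receptor parts Nrp1, Plxna4 (8.26-fold) and Plxna2 (7.1-fold) were lower with it. Sema3a, Nrp1, Plxna4 and Plxna2 were named because they were called, so their common direction is not independent evidence. Values of other possible receptor parts for this ligand are not given.

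Genes of cyclic nucleotide signalling were called in both directions. In the cAMP and cGMP list 6 of 29 genes were lower and 3 higher, 31.0% against the 11.1% of all genes. The higher count was 1 on leaving out XX pool 3 or any XY pool of E12.5. Pde1a, a calcium-dependent phosphodiesterase gene, was 10.3-fold lower, Prkg1, the cGMP-dependent kinase gene, 8.8-fold, and Adcy7, an adenylyl cyclase gene, 8.69-fold. Prkg1 read 11.26, 10.64 and 10.89 in XX and 8.20, 8.08 and 7.11 in XY. Pde8a, a cAMP phosphodiesterase gene, was 2.26-fold higher. Gng13, a G protein gamma subunit best known from taste cells, read 8.93, 9.56 and 9.56 against 5.44, 5.96 and 5.63 (12.7-fold lower, adjusted p = 4.9e-05), and Rgs12, which speeds G protein turnover, was 2.61-fold lower.

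Nutrient and ion transporters made up the largest family examined. Of 334 solute carrier genes 27 were higher in XY and 21 lower, with a median of 0.03. The called share of 14.4% was near the 11.1% of all genes. Slc38a5, a glutamine transporter gene on the X chromosome, read 6.17, 5.25 and 5.33 in XX and 10.18, 10.03 and 10.81 in XY (26.9-fold (95% interval 16.2 to 44.6) higher). Slc26a7, an anion exchanger gene, was 19.7-fold higher. Slc7a9, which takes up cystine, read 9.76, 9.91 and 9.36 against 5.77, 6.85 and 6.5 (9.88-fold lower), and Slc37a2 was 8.54-fold lower. Of 45 ABC transporter genes Abcb10 (3.32-fold), a mitochondrial one, was higher and Abca9 (4.27-fold) and Abca4 (3.46-fold) were lower.

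Most cystatin and defensin genes were not called. Of 29 cystatin and defensin genes 5 were higher and 1 lower, 20.7% against the 11.1% of all genes, with a median of 0.04. Only 3 higher calls were left on removing XX pool 1 or 2 or XY pool 1 or 3 of E12.5. Defb19, a beta-defensin gene, read 7.15, 7.97 and 8.30 in XX and 12.12, 12.13 and 12.34 in XY (21-fold higher). Cst9, the testatin gene, read 6.29, 5.67 and 6.30 against 9.26, 9.19 and 9.49 (9.36-fold higher), and Cst13 was 4.21-fold higher. Cystatins are close copies of one another, so cross-reading of their probes was not tested. Serpina5, the protein C inhibitor gene, was at least 23-fold higher, with 8.39, 9.48 and 9.06 in the XY pools. Serping1, the C1 inhibitor gene, was 9.82-fold lower. Of 61 serine protease genes 6 were higher and 3 lower, 14.8% against the 11.1% of all genes. The higher ones included Prss35 (15.6-fold) and Prss12 (5.42-fold), the lower ones the kallikrein gene Klk8 (3.69-fold). Cpa1 (3.36-fold lower), counted on that list, encodes a carboxypeptidase and no serine protease.

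Many of the largest differences lay outside these families. Higher in XY were Pak3 (6.02, 6.44 and 6.10 in XX and 12.34, 11.26 and 11.44 in XY), which encodes a kinase downstream of RAC, Nell1 (34.3-fold), Tmcc3 (33.5-fold), Rtn4rl1 (29.4-fold), Rerg (at least 28.3-fold), Sowahb (27.7-fold) and Ankrd63 (26.6-fold). Cstdc1, a gene with a cystatin domain, read 5.67, 5.87 and 6.08 in XX and 10.80, 10.68 and 10.72 in XY, the smallest adjusted p of this group (adjusted p = 1.8e-07). Mmd2, a membrane protein gene used as an early Sertoli marker, read 6.96, 6.76 and 7.63 against 12.13, 12.34 and 12.24. The XY pools of these 3 genes were above 10 in every case and the XX pools below 8. Afap1l2 was 44.4-fold higher, and its call ended on leaving out any 1 of XX E12.5 pool 1 and XY E12.5 pool 3 (adjusted p up to 0.055). Lower in XY were Ccdc182 (12.46, 12.12 and 12.14 in XX and 7.41, 6.86 and 6.79 in XY), Sphkap (40.2-fold), an anchor of protein kinase A, Vav3 (29.5-fold), Csgalnact1 (29.9-fold), which starts chondroitin sulfate chains, and Lmo7 (27-fold). Drp2, a dystrophin-related protein gene on the X chromosome, read 13.09, 12.75 and 12.63 against 8.01, 8.06 and 8.36 (25.6-fold (95% interval 18.7 to 35.1) lower). Sprr2d, an epithelial cornified envelope gene with near-identical copies, read 13.60, 13.27 and 13.29 against 8.38, 8.42 and 8.77. Cd244a (at least 41.7-fold), Svopl (at least 32.2-fold), Insyn2b (at least 27.7-fold) and Taf7l (at least 26-fold) lay at the background in XY. Called at 1 of 2 probe sets were Nell1, Sphkap, Lmo7 and Cd244a, and at 2 of 3 Mmd2, Vav3 and Drp2. Tmcc3 was called at 2 of 5 probe sets and Pak3 at 3 of 4.

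**Figure D4:**
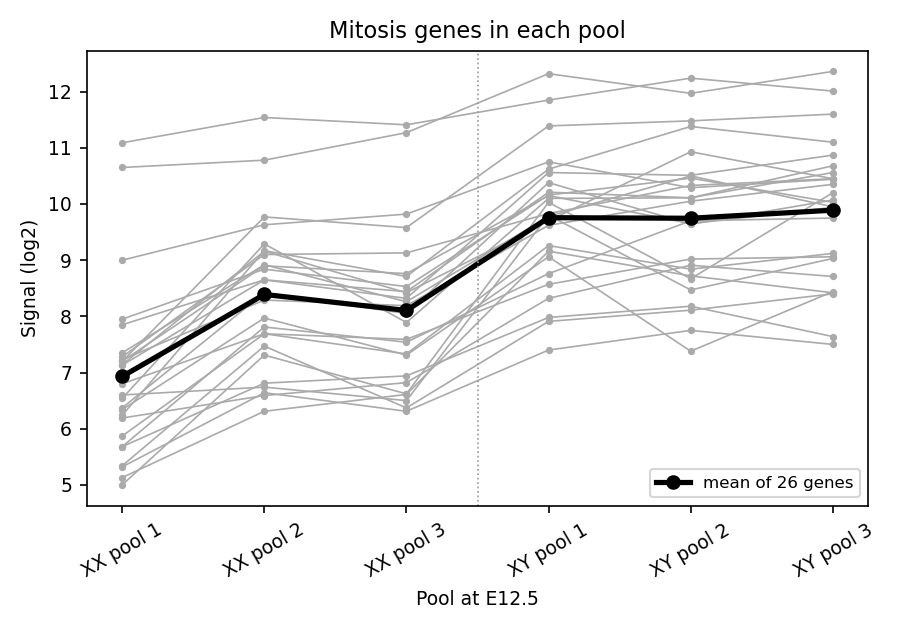
Log2 signal of 26 mitosis genes in each of the 6 pools at E12.5, 1 thin line per gene and a thick line for their mean. The mean is lowest in XX pool 1 at 6.93 and between 9.75 and 9.89 in the XY pools.

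All 26 measured mitosis genes had a difference above 0, the median was 2.00, and 12 were called, 46.2% against the 11.1% of all genes. Their mean signal was 6.93, 8.39 and 8.10 in XX pools 1 to 3 and 9.76, 9.75 and 9.89 in the XY pools. XX pool 1 was thus more than 1 log2 unit below the other XX pools, and every XY pool was above every XX pool. Of the E12.5 arrays, leaving out XX pool 1 left 5 calls and XX pool 3 left 6, and leaving out XY pools 1, 2 and 3 left 4, 5 and 4. Leaving out XX E11.5 pool 2 gave 19. Kept without any 1 array were the kinase genes Aurka (4.33-fold) and Nek2 (5.61-fold) and the spindle midzone gene Prc1 (5.17-fold). DNA replication genes had a median of 0.43 with 2 of 30 called higher (6.67%). That count was 0 without any 1 of the E12.5 arrays and 7 without XX E11.5 pool 2. Of 15 cell cycle inhibitor genes 3 were called lower and 1 higher (26.7%), and the median was 0.32 with 10 above 0. The lower genes were those of the cyclin-dependent kinase inhibitors Cdkn1a (5.67-fold), Cdkn1c (5.18-fold) and Cdkn1b (2.75-fold), and all 3 held without any 1 array. Btg2, an antiproliferative gene induced by p53, was 2.83-fold higher, and its call ended on leaving out any 1 of XX E11.5 pool 1, XY E11.5 pools 1 and 3, XX E12.5 pools 2 and 3 and XY E12.5 pools 1, 2 and 3 (adjusted p up to 0.17). Cdkn1c read 12.86, 12.57 and 12.62 in XX and 9.94, 10.38 and 10.61 in XY.

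Called shares among markers of other gonad cells lay on both sides of the 11.1% of all genes. They were 0% for endothelial and for macrophage and leukocyte markers, and 5.88% for germ cell markers. Erythroid, interstitial and Leydig, and coelomic and mesonephric markers had 12.5%, 13.3% and 15.4%. The pools are bulk samples, in which fewer cells of a type and less RNA per cell cannot be told apart. Of 18 endothelial markers 0 were called by limma (0 with an unadjusted p under 0.05), with a mean level over the list of 6.58 to 7.03 in XX and 6.67 to 7.20 in XY, and their defining marker Pecam1 read 4.89 in XX and 4.95 in XY, within the background range. Macrophage and leukocyte markers (0 of 15 called, median 0.31) had mean levels of 7.11 to 7.23 in XX and 7.61 to 7.88 in XY, the groups not overlapping, and 2 had an unadjusted p under 0.05 in limma. Csf1r, the macrophage growth factor receptor gene, read 10.44 and 10.85. The part of such cells in the differences above was not tested. Germ cell markers had mean levels of 5.44 to 6.26 in XX and 5.37 to 6.06 in XY, with Pou5f1 at 5.96 and 5.89 and Ddx4 at 3.65 and 5.45 and not called. Of 17 germ cell markers 1 was called (0 on leaving out XX pool 1 of E12.5, and 2 on leaving out XY pool 3), Tex11, with 3.62, 3.74 and 3.79 in XX and 4.48, 4.86 and 4.17 in XY, all within the background range. Of 8 erythroid markers Klf1 was called (2.68-fold higher), and that call ended on leaving out any 1 of XX E12.5 pools 1 and 3 and XY E12.5 pool 2 (adjusted p up to 0.054). The mean levels of interstitial mesenchyme and Leydig markers overlapped as well, at 8.01 to 8.46 and 8.12 to 8.62. Of these 15, 7 had an unadjusted p under 0.05 and 2 were called, both higher in XY. They were Ptch1, the receptor and target gene of hedgehog signals, with 10.54, 10.80 and 10.70 in XX and 13.09, 12.69 and 12.77 in XY, and Pdgfra, a PDGF receptor gene of interstitial cells (3.62-fold). The call of Pdgfra ended on leaving out any 1 of XX E12.5 pools 1 and 3 and XY E12.5 pools 1 and 2 (adjusted p up to 0.078). Markers of the coelomic and mesonephric epithelium stood at 7.49 to 7.98 in XX and 6.93 to 7.21 in XY, again without overlap, and 2 of 13 were called lower (4 without XX E12.5 pool 1), Emx2 among them. Of 17 glial genes 6 were higher in XY and 1 lower, 41.2% against the 11.1% of all genes. Their mean levels were 7.03 to 7.14 in XX and 7.94 to 8.09 in XY. Dhh, Erbb3 and Sox10 belong both to that list and to those above, and the part of glial cells was not tested. Of the 9 probe sets of 3 Y-linked genes, 5 read higher on every XY array than on any XX array, and the other 4 and Sry did not separate the sexes.

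**Figure D5:**
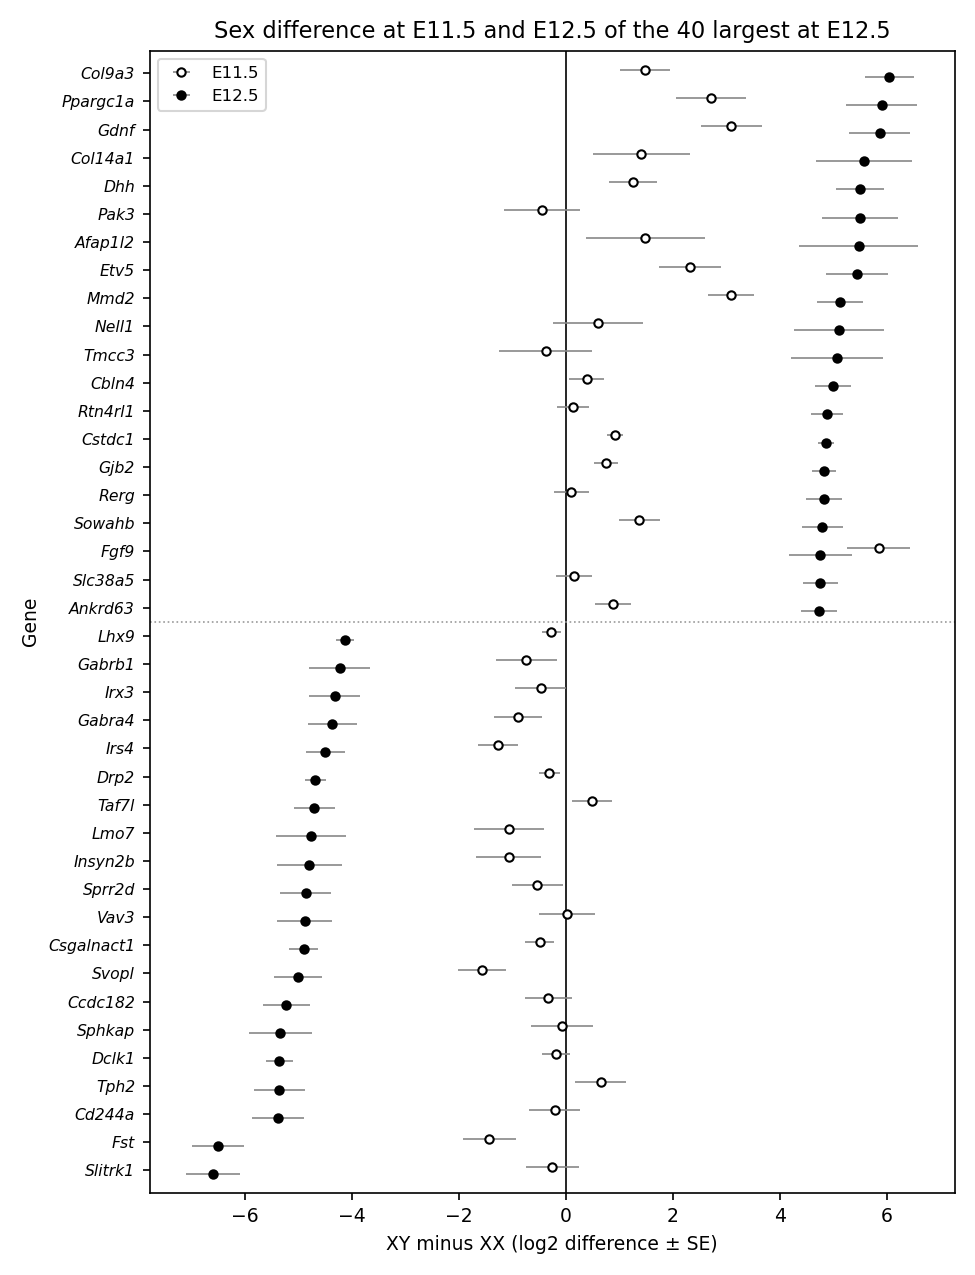
Log2 difference between XY and XX of the 40 genes with the largest differences at E12.5, at E11.5 (open circles) and at E12.5 (filled circles), with the SE as a bar. Genes higher in XY at E12.5 are in the upper block and genes lower in the lower block. Fgf9, Gdnf and Mmd2 lie furthest from 0 at E11.5.

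The arrays from E11.5 show how much of the E12.5 pattern was already there. They are separate samples, so agreement of sign is not forced by shared values. Of the 1006 genes higher in XY at E12.5, 664 (66.0%) were above 0 at E11.5, against 57.9% of all 17996 genes, and of the 993 lower, 577 (58.1%) were below 0, against 41.3%. Among genes higher in XY by under 2-fold, 2 to 4-fold, 4 to 16-fold and over 16-fold the share was 65.7%, 62.2%, 69.1% and 84.1%, and among genes lower by the same steps 50.9%, 55.2%, 68.6% and 83.3%. The 44 genes over 16-fold higher and the 30 over 16-fold lower had median differences at E11.5 of 1.05 and -0.40. Only 30 probe sets (0.0678%) were called at E11.5. Sox9 and Fgf9 differed by 4.31 ± 0.38 and 5.84 ± 0.59 a day earlier, next to 3.98 and 4.75 at E12.5. Dhh, Slitrk1 and Fst differed by 1.26 ± 0.45, -0.25 ± 0.50 and -1.43 ± 0.49, next to 5.5, -6.59 and -6.50 at E12.5. Some E11.5 pools spread widely. Dhh read 9.76, 8.53 and 7.34 in XY pools 1 to 3 and 7.23, 7.16 and 7.47 in the XX pools. Fst read 10.68, 9.63 and 12.12 in XX and 9.38, 9.06 and 9.71 in XY. Slitrk1 read 12.43, 10.6 and 12.02 in XX and 10.97, 11.7 and 11.64 in XY. The SE draws on all 12 arrays and does not show the spread of 1 group. The change of the sex difference between the days passed the threshold at 774 probe sets (1.75%). Of all probe sets, 0.796% (352) passed above 0 and 0.954% (422) below 0. It passed at 509 genes (2.83%), 224 of them among the genes higher in XY at E12.5 and 271 among those lower. This change contains the E12.5 difference itself, so that overlap is partly built in and is not independent evidence. The 774 were 1273, 442 and 501 without XY E11.5 pools 1, 2 and 3, 489 and 403 without XX E12.5 pools 2 and 3, and 480 without XY E12.5 pool 3. Which sex had moved was read from the day contrasts, which share the E12.5 arrays with the sex contrast and are given side by side. Of the 1006 genes higher in XY, 524 had risen in XY, 79 had fallen in XX and 409 passed in neither sex. Of the 993 lower, 295 had fallen in XY, 224 had risen in XX and 490 passed in neither.

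Called genes were spread over the genome. The called share ran from 7.97% on chromosome 17 to 14.2% on the X chromosome. It also depended on signal, with 2.27% of the dimmest 4499 genes called and 17.6% of the brightest, and many channel and receptor genes are dim. In 33 places at least 3 neighbouring measured genes were called in the same direction, 13 higher and 20 lower in XY, a pattern looked for after the values were seen. The longest runs had 5 genes, 1 of them the Gstm genes on chromosome 3 and the other on chromosome 1. Fto, Irx3, Crnde and Irx5 on chromosome 8 were lower together, as were Col6a2, Col6a1 and their next neighbours on chromosome 10. Fto, which encodes an RNA demethylase, differed by -0.83 ± 0.15, and Crnde, a long noncoding RNA gene, by -1.49 ± 0.22. Zim1, Peg3 and Usp29, neighbouring imprinted genes on chromosome 7, differed by -3.71 ± 0.23, -0.57 ± 0.09 and -0.74 ± 0.14.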

How the data were processed

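The authors deposited 1 log2 value per probe set and array. How they were background-corrected, summarised and normalized is not given in the sources used here. Their range, up to 14.45, was taken to mean log base 2. Probe sets with a value on all 12 arrays were kept (44238 of 45037). Array medians ran from 6.494 to 6.592, and 3 arrays per group limit the precision. Symbols came from the platform annotation, updated by Entrez identifier for 34126 probe sets, and 34328 probe sets named 1 gene, 850 several and 9060 none. A gene is read at its brightest probe set over the 12 arrays.

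Differences are from limma 3.58.1 in R 4.3.3 on 4 group means over all 12 arrays (8 residual degrees of freedom, prior 2.11), with p-values adjusted by Benjamini-Hochberg over 44238 probe sets, two-sided. Folds are 2 to the power of the log2 difference. The script was tested on simulated data. Alternatives were median centring or quantile normalization, dropping dim probe sets, array weights, a variance trend, a block for the pool number, a fit of these 6 arrays, 1 or averaged probe sets per gene, a minimum of 2-fold, and leaving out each array.

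The comparison, the lists and the rules were chosen with earlier results of these data known. Named are, per direction, the 20 called genes that differed most among those with separate groups (clone names, Xist, Tsix, Y-linked genes and probe sets of several genes left out), called members of the lists (up to 6 per direction from lists of 30 or more genes, by smallest p), the regulators and the markers. Lrrn3, Slc26a7, Foxl2os, Fto, Crnde, Zim1, Peg3 and Usp29 were named after their values were seen.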

Additional observations from a re-analysis of the deposited data

Results flagged for a closer look

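For 97 of the genes with values above, the sex difference at E12.5 differed from the one at E11.5 by more than the spread between pools allows (limma interaction, adjusted p under 0.05). Such a difference between days was found at 509 genes in all (2.83%). Most genes with values above were named because they were called at E12.5. That E12.5 difference is part of this contrast, so the number of 97 is not independent evidence. Each value below is the sex difference at E12.5 minus that at E11.5 in log2 units, positive where XY cells gained on XX cells over the day. Of the 97, 43 were above 0 and 54 below. No explanation was tested for any of them.

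The sex differences of the markers and of the regulators of the 2 fates differed between the days as follows. Above 0 were Dhh (4.24), Ptgds (3.55), Sox8 (2.71), Sox10 (1.16), Cbln4 (4.60), Erbb3 (5.12), Hes5 (2.80), Hey2 (2.47) and Ptch1 (2.14). Below 0 were Fst (-5.07), Foxl2 (-2.71), Rspo1 (-3.62), Bmp2 (-2.40), Lhx9 (-3.86), Emx2 (-3.0), Nr0b1 (-2.29), Irx3 (-3.86), Irx5 (-3.64), Msx1 (-2.92), Prrx2 (-2.70), Pbx3 (-2.18), Gng13 (-3.62) and Sry (-1.57). Sry is the case in which the difference was larger at E11.5, with 1.45 ± 0.16 then and -0.13 ± 0.16 at E12.5.

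Matrix, junction, guidance and adhesion genes showed the same. Above 0 were Col9a3 (4.56), Col9a2 (1.88), Col8a2 (4.35), Smoc2 (3.75), Vcan (3.26), Gjb2 (4.07), Cdh4 (1.44), Robo1 (4.18) and Plxnb3 (2.62). Below 0 were Col6a2 (-2.02), Has2 (-1.29), Acta2 (-2.78), Sema3a (-4.02), Plxna4 (-2.84), Slitrk1 (-6.34), Dclk1 (-5.17), Cntn5 (-3.80) and Lrrn3 (-3.39).

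Genes of secreted proteins, enzymes and transporters came next. Above 0 were Defb19 (4.39), Cst9 (2.32), Cstdc1 (3.94), Serpina5 (4.66), Prss35 (4.45), Prss12 (2.12), Hpgd (2.76), Hsd17b1 (2.24), Hsd17b3 (1.36), Gstm6 (3.34), Gstm7 (2.05), Gpx3 (2.39), Ebp (1.33), Slc38a5 (4.60), Slc6a4 (1.64), Abcb10 (1.62) and Pde8a (1.45). Below 0 were Serping1 (-3.44), Tph2 (-6.00), Ptgis (-2.91), Dhrs3 (-2.26), Mtr (-1.47), Slc1a4 (-3.27), Slc7a9 (-2.72) and Slc37a2 (-2.62).

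Signalling and channel genes made a further group. Below 0 were Igfbp2 (-2.58), Igfbp5 (-2.15), Igfbp4 (-1.88), Irs4 (-3.22), Sulf1 (-3.72), Prkg1 (-3.23), Adcy7 (-3.16), Rgs12 (-1.33), Gabra4 (-3.47), Cacna1d (-3.13), Kcnf1 (-2.29) and Cdkn1c (-2.18).

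The remaining genes included the mitosis genes and the largest differences outside the families. Above 0 were Aurka (2.75), Prc1 (2.86), Nek2 (3.36), Pak3 (5.93), Rtn4rl1 (4.74), Rerg (4.72), Sowahb (3.42) and Ankrd63 (3.85). Below 0 were Ccdc182 (-4.89), Sphkap (-5.25), Vav3 (-4.90), Csgalnact1 (-4.42), Drp2 (-4.37), Sprr2d (-4.34), Cd244a (-5.18), Svopl (-3.45), Taf7l (-5.18), Zim1 (-3.67) and Crnde (-1.87).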

How the results depend on the processing

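No called gene with values above changed direction under any alternative: of the 180, 168 kept the call without any 1 array and 162 under all of the 10 other settings that gave them a value (159 had one among brighter probe sets). The 8 lost on averaging the probe sets of each gene were Btg2, Gclm, Inhbb, Map2, Mtr, Pde8a, Pdgfra and Usp29. Array quality weights raised the probe sets called from 3416 to 5794 (2863 higher and 2931 lower), and averaged probe sets gave 1147 genes higher. Without 1 array the counts ran from 2054 to 3765 in all, 1030 to 1956 higher, 1019 to 1809 lower and 403 to 1273 for the change between days; the cause was not tested. Of the genes that were not called, Gata4 changed sign with quantile normalization (-0.038), array weights (-0.090) and averaged probe sets (-0.025), and ran from -0.2 to 0.181 without 1 array. Wt1 was 0 with array weights, Nr5a1 -0.007 with averaged probe sets, and Pou5f1 ran from -0.174 to 0.052 without 1 array. The deviations of XX and XY pools with the same number had correlations of 0.22, 0.03 and 0.04. Pools with different numbers gave -0.17 to 0.1, and not every pool correlated best with its own number. These correlations are few and not independent, since each pool enters several, so whether the number pairs the pools cannot be decided from them. With the pool number as a replicate block 3084 probe sets were called, 1557 higher and 1527 lower, and 600 for the change between days.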

Other observations

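Probe sets of 1 gene did not always agree. Of 1637 genes with more than 1 probe set and a called one, 192 had all probe sets called in the same direction, and 7 had probe sets called in both: Pnkd, Tnpo1, Xiap, Itpr2, Lpgat1, Cacna2d2 and Fnbp1. Itpr2, an inositol trisphosphate receptor gene, has 6 probe sets, of which 4 read lower in XY, by up to 2.44 log2 units, and 1 read higher, by 0.49. At Fnbp1, which encodes a membrane-bending protein, 1 probe set differed by 1.83 and another by -0.71. At Cacna2d2, a calcium channel subunit gene, 1 probe set differed by 1.77 and another by -0.43. Which transcripts these probe sets read was not examined.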
